A study of Homo sapiens with 18 samples.

Results

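The EGR, IER and KLF immediate early genes are followed here in ZR-75-1 cells, a human breast cancer cell line of luminal, estrogen receptor-positive type. The members are 10 genes chosen by symbol: the transcription factors EGR1, EGR2 and EGR3, the immediate early response genes IER2, IER3 and IER5, the Krüppel-like factors KLF4, KLF6 and KLF10, and the phosphatase gene DUSP1. Each was found by its gene ID among the 60252 gene IDs that every library lists, and all 10 passed the filter on low counts that left 21285 genes for testing.

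In all 6 groups the cells were grown in RPMI with 10% fetal bovine serum and kept in 1% serum during the treatment. The groups were an ADAR knockdown line and its control line (called SHC in the labels), each given 100 nM triptolide for 16 h, DMSO for 16 h as vehicle (listed at 100 nM), or no treatment. ADAR is an RNA editing enzyme that deaminates adenosine, and triptolide blocks initiation by RNA polymerase II through the XPB subunit of TFIIH. There were 3 libraries per group and 18 altogether, and the biological replicates of a group carry the numbers 1 to 3. Only 1 knockdown line and 1 control line were used, so the knockdown and the line cannot be told apart.

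Immediate early genes are the first to be transcribed after a growth factor, serum or stress signal, because the factors that switch them on are already present in resting cells. The MAP kinase pathway phosphorylates ternary complex factors such as ELK1, which sit with SRF on a DNA element called the CArG box, and it activates kinases that phosphorylate CREB on its own element. Most of the resulting mRNAs are short-lived and carry AU-rich elements, and some of the products, DUSP1 among them, switch the kinases off again. In breast epithelium this programme follows estrogen, growth factors and stress.

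ADAR, the gene targeted, was lower in the knockdown library in 9 of 9 pairs of equal treatment and replicate number, at 31.2 to 77.5% of the control level. Its change was not called without pairing (adjusted p 1, 1 and 0.324 in untreated, DMSO and triptolide cells, edgeR quasi-likelihood test), and with the replicate number as a block it was called under triptolide (adjusted p = 0.000192). Each library held between 26709657 and 35674502 counts in genes. Mitochondrial ribosomal RNA took 42.7 to 55.2% of the counts in the 6 triptolide libraries and 20.2 to 37.1% in the other 12, and its part in the results below was not tested. Of 10 luminal epithelial markers, 10 averaged at least 1 CPM, the unit of counts scaled to TMM library size that is used for all levels here, led by KRT8 at 2730 CPM, and their summed level was 3370 to 7330 CPM under triptolide against 4350 to 6340 CPM in the other libraries. Of the 14 markers of other cell types with a row, 4 averaged 1 CPM or more, KRT17, COL1A1 and VWF among them, and none was at 0 throughout. The summed basal, leukocyte, fibroblast and endothelial levels reached 6.48, 9.95, 33.1 and 5.12 CPM under triptolide, against 3.83, 8.04, 22.0 and 3.87 CPM in the other libraries. Under triptolide against DMSO, at an adjusted p under 0.05 in the same test without the block, 4 of the 10 luminal markers were lower in both lines (ESR1, GATA3, FOXA1 and XBP1) and 0 were higher, with medians of -0.56 in knockdown cells and -0.47 in control cells on the log2 scale. Of all genes tested, 18.9% were lower and 16.7% higher in knockdown cells, and 16.0% and 14.9% in control cells. With the block, 6 luminal markers were lower in each line, and 3 were higher in knockdown cells and 4 in control cells. In that fit 28.1% of all genes were lower and 29.1% higher in knockdown cells, and 26.0% and 26.1% in control cells. Of the 7 markers of other cell types tested, the basal marker TP63 and the leukocyte marker CD14 were higher in both lines. CD14 had 11 to 37 counts per library under triptolide and 0 to 1 under DMSO in knockdown cells, and 17 to 30 under triptolide and 0 to 1 under DMSO in control cells, and it was called on the scale of mitochondrial mRNAs as well. TP63 had 12 to 25 counts under triptolide and 4 to 7 under DMSO in knockdown cells, and 8 to 20 under triptolide and 4 to 12 under DMSO in control cells. With the block, VWF was also higher in both lines and COL1A1 and PDGFRB were higher in knockdown cells. The part of these markers in the results was not tested. Changes in these bulk samples cannot tell fewer cells of a kind from less RNA per cell.

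The promoters of the 3 members whose levels were higher in every triptolide library than in any DMSO library of the same line are given first, with those of 2 of the members that were lower in each pair, so that the elements of the immediate early response can be seen beside the values. Each is the RefSeq window on GRCh38.p14, from 250 bases before to 50 bases after the transcription start, read 5′ to 3′ on the strand of the gene. Capitals mark matches on either strand to the CArG box or to TGACG, the core of the element that CREB and ATF proteins bind. The EGR1 window is chr5:138465229-138465528 (plus strand), the KLF4 window chr9:107489720-107490019 (minus), the DUSP1 window chr5:172771146-172771445 (minus), the IER2 window chr19:13150161-13150460 (plus) and the KLF6 window chr10:3785160-3785459 (minus).
EGR1: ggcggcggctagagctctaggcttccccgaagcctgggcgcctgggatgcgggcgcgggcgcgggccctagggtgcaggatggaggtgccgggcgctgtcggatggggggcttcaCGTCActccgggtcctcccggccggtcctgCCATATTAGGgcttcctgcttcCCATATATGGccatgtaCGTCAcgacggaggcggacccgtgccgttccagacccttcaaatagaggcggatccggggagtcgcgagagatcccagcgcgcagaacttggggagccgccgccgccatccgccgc
KLF4: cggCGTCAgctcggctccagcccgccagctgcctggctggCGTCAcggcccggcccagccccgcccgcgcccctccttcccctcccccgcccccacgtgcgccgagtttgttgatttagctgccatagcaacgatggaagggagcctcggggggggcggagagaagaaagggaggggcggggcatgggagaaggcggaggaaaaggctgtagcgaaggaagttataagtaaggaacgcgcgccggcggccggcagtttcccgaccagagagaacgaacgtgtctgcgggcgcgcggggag
DUSP1: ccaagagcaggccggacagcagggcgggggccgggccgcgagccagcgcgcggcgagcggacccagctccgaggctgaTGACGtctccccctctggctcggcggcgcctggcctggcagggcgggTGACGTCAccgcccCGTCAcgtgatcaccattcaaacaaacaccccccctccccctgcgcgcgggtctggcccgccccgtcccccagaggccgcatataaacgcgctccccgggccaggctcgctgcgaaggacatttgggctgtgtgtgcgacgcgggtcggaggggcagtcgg
IER2: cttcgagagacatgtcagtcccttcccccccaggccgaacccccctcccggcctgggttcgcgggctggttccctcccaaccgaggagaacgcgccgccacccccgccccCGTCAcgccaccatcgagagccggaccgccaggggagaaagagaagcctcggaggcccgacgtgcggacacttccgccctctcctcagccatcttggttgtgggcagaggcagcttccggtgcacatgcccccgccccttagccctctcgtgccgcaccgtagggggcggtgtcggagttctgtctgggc
KLF6: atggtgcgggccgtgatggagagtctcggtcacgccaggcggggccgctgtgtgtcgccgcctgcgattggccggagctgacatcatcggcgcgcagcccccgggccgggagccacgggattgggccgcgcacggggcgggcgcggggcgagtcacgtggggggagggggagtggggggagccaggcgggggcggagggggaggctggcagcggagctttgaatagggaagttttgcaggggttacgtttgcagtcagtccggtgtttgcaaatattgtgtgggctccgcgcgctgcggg

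The EGR1 window held 2 CArG boxes, which begin 105 and 83 bases before the start, and 2 TGACG matches, at 135 and 66 bases before it. A CArG box occurs in 1.29% of the 35116 RefSeq promoter windows of this length. The DUSP1 window held 4 TGACG matches, at 172, 125, 122 and 111 bases before the start, of which the middle pair overlap as one palindrome, and the KLF4 window held 2, at 247 and 210 bases before the start. TGACG occurs in 24.6% of all windows. The IER2 window held 1 TGACG match, and the KLF6 window held neither of these elements in the letters searched. GGGCGG, the core of the GC box that SP and KLF proteins bind, was matched 4 times in the DUSP1, KLF4 and IER2 windows, 2 times in the KLF6 window and 0 times in the EGR1 window, against 45.0% of all windows with a match. TATAAA was matched only in the DUSP1 window of these 5, where it begins 30 bases before the start, and in 11.5% of all windows. The EGR site GCGTGGGCG was matched in 0 of these 5 windows and in 0.795% of all. EGR2, which was not called, has 3 starts, and the window of 1 of them had a CArG box as well, at 71 bases before the start. That window also held 2 TGACG matches, at 110 and 54 bases before the start. The IER5 window held neither element, and windows of EGR3, IER3 and KLF10 are not reported here. A match is only a run of letters, and a window without one says nothing of the factor.

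The members differed widely in their level per unit of length. CPM divided by the summed exon length in GENCODE release 44, here CPM per kb, allows genes to be set side by side, although the submitters' own gene models may differ from that annotation. The length includes bases shared with other genes, for IER3 440 of 1350 bases and for IER2 946 of 3079. If the counting left such bases unassigned, these levels per kb would be too low. Under triptolide, knockdown cells had KLF10 highest at 12.1 ± 4.47 CPM per kb (SD, n = 3), then IER3 at 11.4 ± 1.78, IER5 at 5.63 ± 1.05, KLF4 at 3.13 ± 0.71, DUSP1 at 2.19 ± 0.164, KLF6 at 1.45 ± 0.229, IER2 at 1.09 ± 0.426, EGR1 at 0.761 ± 0.0534, EGR3 at 0.157 ± 0.0455 and EGR2 at 0.0429 ± 0.0584 CPM per kb. Control cells under triptolide had the same order except that IER2 stood above KLF6, with KLF10 at 13.4 ± 3.99 CPM per kb at the top and EGR1 at 1.28 ± 0.533, EGR3 at 0.165 ± 0.0319 and EGR2 at 0.075 ± 0.0322 CPM per kb at the bottom. Under DMSO, knockdown cells had IER3 at 10.9 ± 4.94 CPM per kb, KLF10 at 9.97 ± 1.23, IER5 at 5.35 ± 1.88, KLF6 at 2.38 ± 0.609, IER2 at 1.99 ± 0.864, KLF4 at 1.42 ± 0.289, DUSP1 at 1.26 ± 0.343, EGR3 at 0.755 ± 0.481, EGR1 at 0.0753 ± 0.0611 and EGR2 at 0.0305 ± 0.0132 CPM per kb. Control cells under DMSO had KLF10 first, at 10.2 ± 2.1 CPM per kb, then IER5 at 5.52 ± 1.97 and IER3 at 5.16 ± 2.14 CPM per kb, and EGR1 last, at 0.0655 ± 0.0359 CPM per kb. KLF4 and DUSP1 thus stood above KLF6 and IER2 under triptolide and below them under DMSO in both lines, and EGR1 stood above EGR3 under triptolide and below it under DMSO. Under triptolide in knockdown cells, the intervals of mean ± SD overlapped between KLF10 and IER3 and along KLF6, IER2 and EGR1, and the other neighbours were apart. Under DMSO in the same cells they overlapped between IER3 and KLF10, from KLF6 down to EGR3 and between EGR1 and EGR2.

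**Figure D1:**
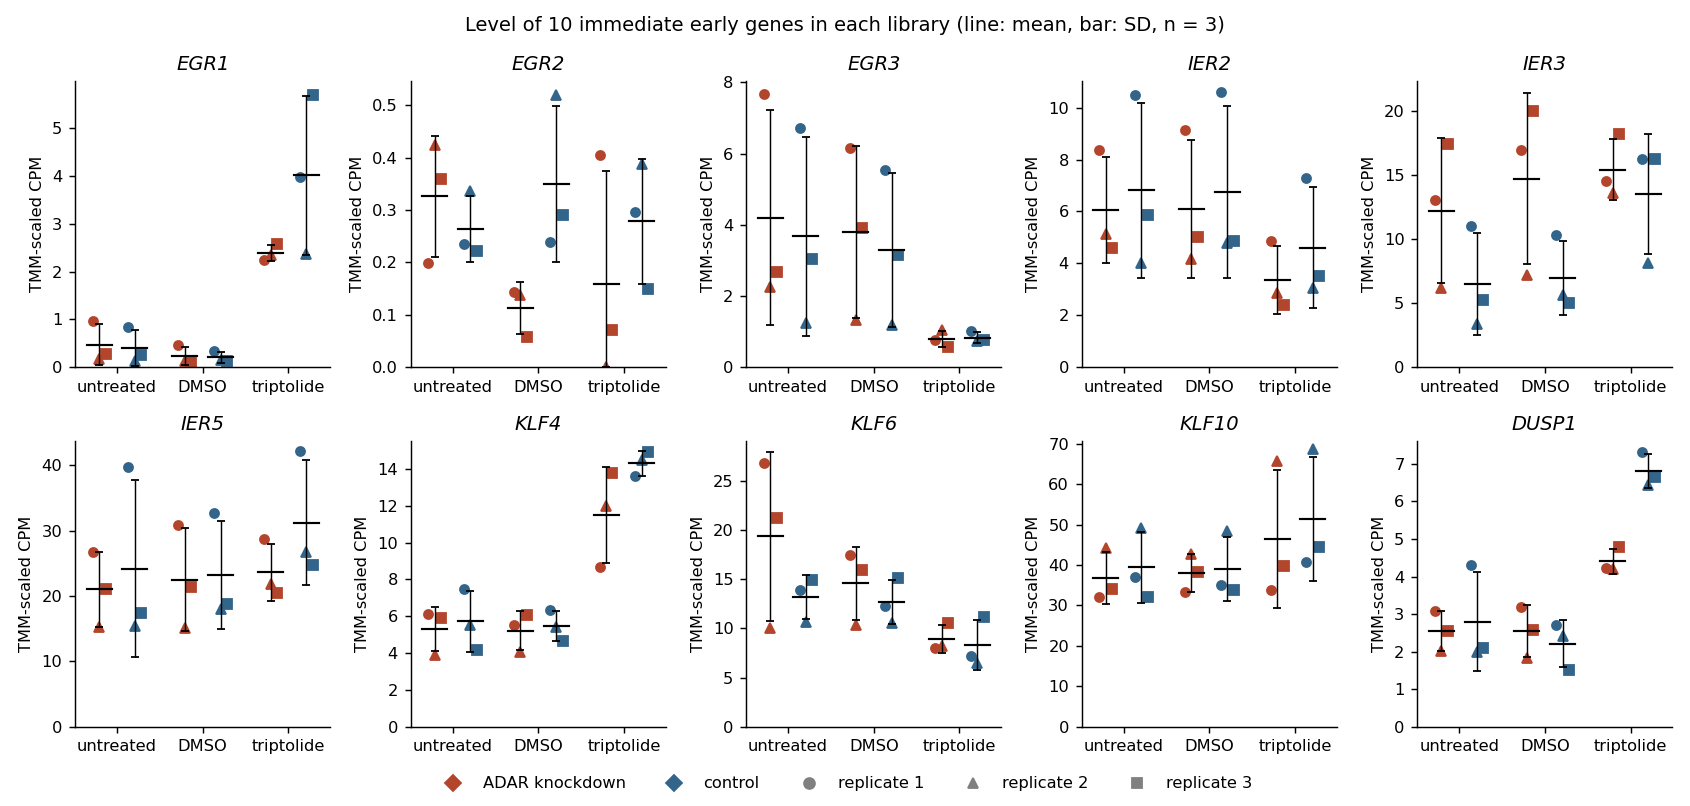
Level of each gene in each library, as TMM-scaled CPM on a linear axis from 0, in untreated, DMSO and triptolide cells of the ADAR knockdown line (red) and the control line (blue); point shapes are replicates 1 to 3, the line is the mean and the bar the SD (n = 3). EGR1, KLF4 and DUSP1 sit higher under triptolide in both lines and EGR3 sits lower, between 0.572 and 1.03 CPM.

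Triptolide set against DMSO asked how the levels of these mRNAs differed after 16 h. Transcription and decay were not measured. Relative to the other mRNAs, EGR1 and KLF4 were higher and EGR3 was lower in both lines. Without the replicate block, DUSP1 was called higher in control cells, and IER2, IER3, IER5, KLF6, KLF10 and EGR2 were not called in either line. This came to 3 of 10 members called in knockdown cells and 4 of 10 in control cells, beside 35.7% and 30.8% of all genes tested. In this fit without the replicate block the members were thus called about as often as genes in general. By direction, 2 members were higher and 1 lower in knockdown cells, where 16.7% of genes were higher and 18.9% lower, and 3 were higher and 1 lower in control cells, where 14.9% and 16.0% were. A gene was called where the edgeR quasi-likelihood test (two-sided) gave it an adjusted p under 0.05, by Benjamini-Hochberg over all genes tested. With the replicate number as a block, 6 members were called in knockdown cells, beside 57.1% of all genes. In control cells 9 were, beside 52.1%. Leaving out replicate 1, 2 or 3 of every group brought this to 5 to 7 members, beside 8371 of 20712, 9919 of 21547 and 8968 of 21955 genes. The members were chosen with earlier results of these data known, and whether they were called more often than genes in general was not tested. Of the members called with the block over all 18 libraries, 3 were higher and 3 lower in knockdown cells (29.1% and 28.1% of all genes). In control cells 6 were higher and 3 lower (26.1% and 26.0%). That fit added DUSP1, higher, and IER2 and KLF6, lower, to those called in both lines. It also called IER3, IER5 and KLF10 higher in control cells. DESeq2 called 4 members in each line, beside 39.3% and 34.2% of all genes.

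**Figure D2:**
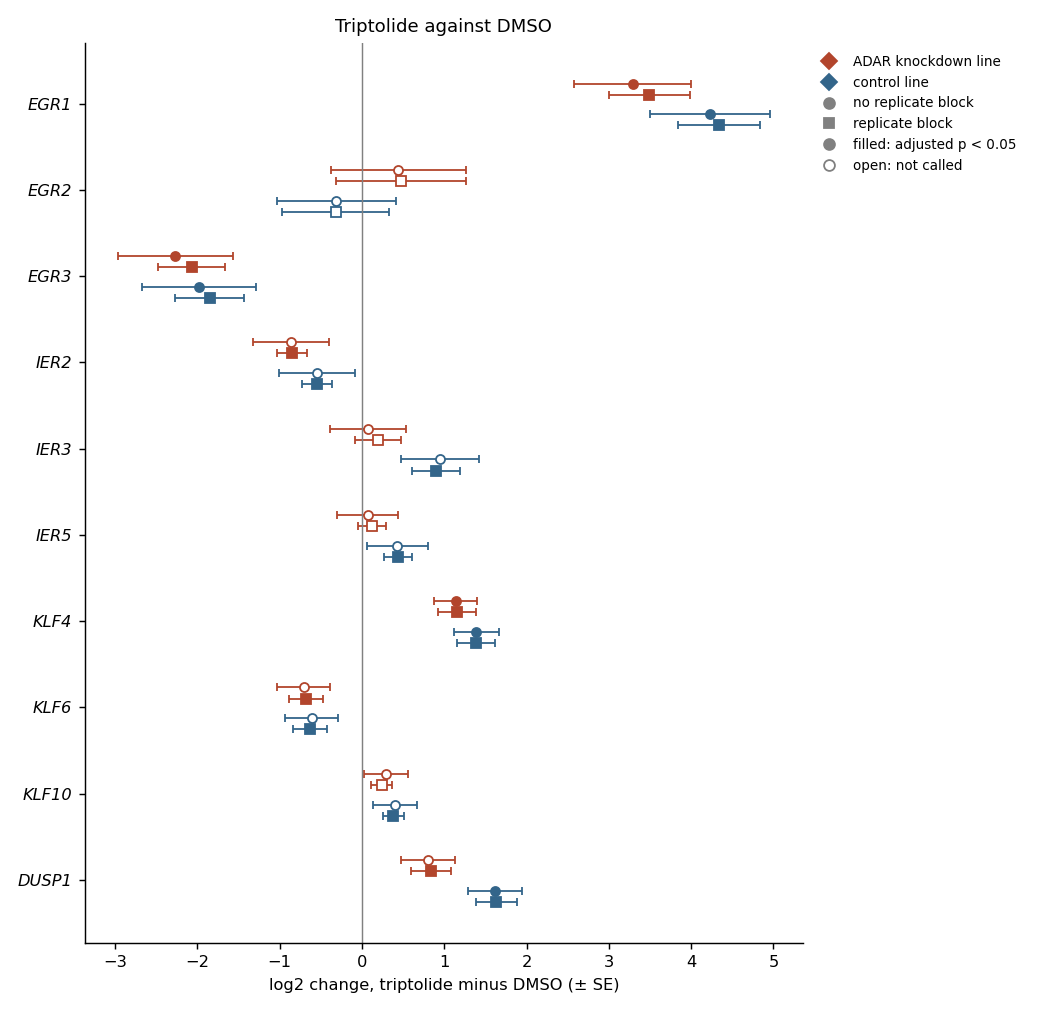
Log2 change under triptolide relative to DMSO for each of the 10 genes, with its SE, in the knockdown line and the control line; circles are fits without the replicate block, squares fits with it, and filled points have an adjusted p under 0.05. EGR1 has the largest change in both lines (3.29 and 4.23 without the block), and EGR3 the lowest (-2.27 and -1.98).

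EGR1, a zinc finger transcription factor and the classic serum-response gene, lies on chromosome 5 at 137801168-137804992 (GRCh37, plus strand). It stood at 2.25, 2.34 and 2.57 CPM in knockdown cells under triptolide (replicates 1, 2 and 3), against 0.457, 0.138 and 0.114 CPM under DMSO. In control cells it stood at 3.98, 2.37 and 5.71 CPM under triptolide, against 0.335, 0.153 and 0.129 CPM under DMSO. Every triptolide library was above every DMSO library of its line, and the DMSO levels rest on 4 to 19 counts per library. EGR1 was thus 9.79-fold higher in knockdown cells (log2 change 3.29 ± 0.71 SE, adjusted p = 0.00172) and 18.7-fold higher in control cells (4.23 ± 0.73, adjusted p = 0.000395). Among the members this was the largest rise, and both calls held with any 1 library left out and under every scaling tried.

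EGR2 and EGR3 are relatives of EGR1 that bind the same GC-rich site. EGR3 (chromosome 8, 22545172-22550993, minus strand) did the opposite of EGR1. It stood at 0.766, 1.03 and 0.572 CPM in knockdown cells under triptolide, against 6.16, 1.33 and 3.92 CPM under DMSO. Control cells had 1.02, 0.726 and 0.752 CPM under triptolide, against 5.53, 1.19 and 3.16 CPM under DMSO. The groups did not overlap in either line, but the DMSO libraries of replicate 2 lay close above the triptolide libraries. The triptolide levels of EGR3 rest on 16 to 22 counts per library in knockdown cells and 15 to 24 in control cells. EGR3 fell to 0.207 of the DMSO level in knockdown cells (-2.27 ± 0.70, adjusted p = 0.0169) and to 0.253 of it in control cells (-1.98 ± 0.69, adjusted p = 0.0381). These calls were near the threshold. In knockdown cells the call was lost without DMSO replicate 1 (adjusted p = 0.0775), triptolide replicate 1 (0.0511) or triptolide replicate 3 (0.0594). In control cells it was lost without DMSO replicate 1 (0.171) or 3 (0.063), or triptolide replicate 1 (0.0719), 2 (0.0975) or 3 (0.0928). With the replicate block the changes were -2.07 ± 0.41 (adjusted p = 0.00026) and -1.85 ± 0.42 (adjusted p = 0.000956). EGR3 also shares 164 bases of exon with a lncRNA on the other strand, ENSG00000253125, which had 5992 counts over the 18 libraries against 1748 for EGR3, and reads of that stretch cannot be assigned to either if the counting ignored strand.

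EGR2 (chromosome 10, 64571756-64578927, minus strand) was near the limit of detection, with 0 to 17 counts per library. It had 9, 0 and 2 counts in knockdown cells under triptolide, against 6, 5 and 2 counts under DMSO, and 7, 8 and 3 counts in control cells under triptolide, against 10, 17 and 9 counts under DMSO. The groups overlapped in both lines, and a difference was not detectable at this depth (adjusted p = 0.702 and 0.775). EGR2 shares 145 bases of exon with the lncRNA ENSG00000289487 on the same strand, which is not among the gene IDs counted.

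KLF4, KLF6 and KLF10 are zinc finger factors that bind GC-rich and CACCC elements. KLF4, which holds back proliferation in many epithelia and is one of the reprogramming factors, lies on chromosome 9 at 110247133-110252763 (minus strand). It stood at 8.65, 12.0 and 13.8 CPM in knockdown cells under triptolide, against 5.54, 4.03 and 6.08 CPM under DMSO. In control cells the values were 13.6, 14.5 and 14.9 CPM under triptolide, against 6.32, 5.44 and 4.68 CPM under DMSO. The groups did not overlap in either line, and the 3 triptolide libraries of control cells were close to each other. KLF4 was 2.20-fold higher in knockdown cells (1.14 ± 0.26, adjusted p = 0.00302) and 2.62-fold higher in control cells (1.39 ± 0.27, adjusted p = 0.000853) relative to the other mRNAs, but it was called in neither line when libraries were scaled to mitochondrial mRNAs (-0.28 and 0.54). KLF4 shares 357 bases of exon with the lncRNA ENSG00000289987 on the other strand, which is not among the gene IDs counted.

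KLF6 (chromosome 10, 3818188-3827473, minus strand), known as a growth suppressor, had lower mean levels under triptolide. It stood at 8.02, 8.23 and 10.6 CPM in knockdown cells under triptolide, against 17.5, 10.4 and 16.0 CPM under DMSO. Control cells had 7.16, 6.49 and 11.2 CPM under triptolide, against 12.3, 10.6 and 15.1 CPM under DMSO. KLF6 was lower in 3 of 3 pairs in each line, although the groups overlapped. Its changes of -0.71 ± 0.32 and -0.61 ± 0.32 missed the threshold (adjusted p = 0.0907 and 0.158), and with the replicate block they passed it, at -0.68 ± 0.21 (adjusted p = 0.00771) and -0.63 ± 0.21 (adjusted p = 0.0153). Without replicate 1 of every group the blocked call in knockdown cells was lost (adjusted p = 0.0717).

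KLF10 (chromosome 8, 103661012-103667953, minus strand), a TGF-beta-inducible repressor and the member with the highest mean level over the 18 libraries, was not called without the block. It stood at 33.7, 65.8 and 39.7 CPM in knockdown cells under triptolide, against 33.3, 42.7 and 38.2 CPM under DMSO. In control cells it stood at 40.7, 68.8 and 44.5 CPM under triptolide, against 35, 48.3 and 33.8 CPM under DMSO. Replicate 2 was the highest of the 3 in 6 of 6 groups, and it gave the largest ratio in both lines. The changes were 0.29 ± 0.27 and 0.40 ± 0.27 (adjusted p = 0.427 and 0.283). With the block KLF10 was called in control cells (0.38 ± 0.13, adjusted p = 0.0228), but not without replicate 2 (0.153) or replicate 3 (0.134) of every group.

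The IER genes share a name and their early induction rather than one function. IER2, a short nuclear protein tied to motility, lies on chromosome 19 at 13261225-13265725 (plus strand). It stood at 4.86, 2.85 and 2.4 CPM in knockdown cells under triptolide, against 9.15, 4.17 and 5.03 CPM under DMSO, and at 7.28, 3.05 and 3.51 CPM in control cells under triptolide, against 10.6, 4.77 and 4.87 CPM under DMSO. Replicate 1 was the highest in 6 of 6 groups, and the groups overlapped although IER2 was lower in 3 of 3 pairs in each line. Without the block the changes were -0.86 ± 0.46 and -0.55 ± 0.46 (adjusted p = 0.157 and 0.395). With it they were -0.85 ± 0.18 (adjusted p = 0.000557) and -0.55 ± 0.18 (adjusted p = 0.0149), the second of which was lost without replicate 1 (0.103) or replicate 3 (0.0605) of every group. IER2 shares exon with 2 lncRNAs on the other strand. It shares 946 bases with ENSG00000267598, which had 0 counts, and 662 bases with ENSG00000287296, which is not among the gene IDs counted.

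IER3, an inhibitor of apoptosis in many settings, lies on chromosome 6 at 30710976-30712325 (minus strand). It stood at 14.5, 13.6 and 18.2 CPM in knockdown cells under triptolide, against 16.9, 7.18 and 20 CPM under DMSO. Control cells had 16.2, 8.08 and 16.2 CPM under triptolide, against 10.3, 5.62 and 5 CPM under DMSO. Control cells had the higher level under triptolide in 3 of 3 pairs, whereas knockdown cells did in 1 of 3. The changes were 0.07 ± 0.46 in knockdown cells and 0.95 ± 0.47 in control cells (adjusted p = 0.915 and 0.135). With the block the change in control cells was called, at 0.90 ± 0.29 (adjusted p = 0.0118), but not without replicate 3 (0.117), and the change in knockdown cells was 0.20 ± 0.28 (adjusted p = 0.56). IER3 shares 440 bases of exon with IER3-AS1 on the other strand, which had 37 counts over the 18 libraries against 6355 for IER3, and 85 bases with HCG20, which had 20.

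IER5 (chromosome 1, 181057836-181062036, plus strand), which acts with the heat shock factor HSF1, stood at 28.7, 21.9 and 20.4 CPM in knockdown cells under triptolide, against 30.9, 15.1 and 21.4 CPM under DMSO. Control cells had 42.2, 26.7 and 24.7 CPM under triptolide, against 32.7, 18 and 18.8 CPM under DMSO. As in IER2, replicate 1 was the highest in 6 of 6 groups. The changes were 0.07 ± 0.37 and 0.43 ± 0.37 (adjusted p = 0.893 and 0.408). With the block the change in control cells was called (0.44 ± 0.17, adjusted p = 0.0301), but it was lost without replicate 1 (0.0528), 2 (0.139) or 3 (0.0992) of every group.

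DUSP1, a nuclear phosphatase that inactivates p38, JNK and ERK, lies on chromosome 5 at 172195099-172198198 (minus strand). It stood at 4.23, 4.21 and 4.79 CPM in knockdown cells under triptolide, against 3.20, 1.82 and 2.58 CPM under DMSO. In control cells it stood at 7.33, 6.44 and 6.66 CPM under triptolide, against 2.70, 2.41 and 1.52 CPM under DMSO. The groups did not overlap in either line, and under triptolide the control libraries were all above the knockdown libraries. DUSP1 was 3.07-fold higher in control cells (1.62 ± 0.33, adjusted p = 0.00145), a call lost with scaling to mitochondrial mRNAs (0.76, adjusted p = 0.269). In knockdown cells the change was 0.80 ± 0.33, which missed the threshold without the block (adjusted p = 0.0662) and passed it with the block (0.84 ± 0.24, adjusted p = 0.00623). That blocked call was lost without replicate 2 of every group (adjusted p = 0.0605). In all, EGR1, KLF4 and DUSP1 were higher and EGR3 lower without overlap in both lines, where 24.0% of genes were higher and 24.7% lower without overlap in knockdown cells and 20.9% and 22.2% in control cells.

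All of these changes are relative to the other mRNAs in each library. TMM scaling, which was used throughout, put the median change of all genes at 0.04 in knockdown cells and 0.03 in control cells. Scaling instead to the 13 mRNAs encoded in mitochondria, which RNA polymerase II does not make, put that median at -1.36 and -0.79, and on this scale EGR1 was still higher (1.92, adjusted p = 0.0249, and 3.19, adjusted p = 0.00215) and EGR3 still lower (-3.63 and -2.90). KLF4 then stood at -0.28 in knockdown cells and 0.54 in control cells and DUSP1 at -0.62 and 0.76, all 4 uncalled. Relative to the median of all genes on that same scale, the changes were 3.28 and 3.97 for EGR1, 1.08 and 1.33 for KLF4, 0.74 and 1.55 for DUSP1 and -2.27 and -2.11 for EGR3. KLF6 was called lower on this scale in both lines (-2.15 and -1.53), and IER2, IER3 and IER5 in knockdown cells (-2.27, -1.38 and -1.34), where 57.5% of all genes were called, against 33.1% in control cells. The scale also moved without triptolide. For DMSO against untreated, the median of all genes was 0.54 in knockdown cells and -0.22 in control cells. For knockdown against control under DMSO it was 0.56. In their response to triptolide, 0 of 21285 genes were called different between the lines on this scale. A difference between the lines on it was therefore not shown, and the part of the DMSO libraries was not tested.

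**Figure D3:**
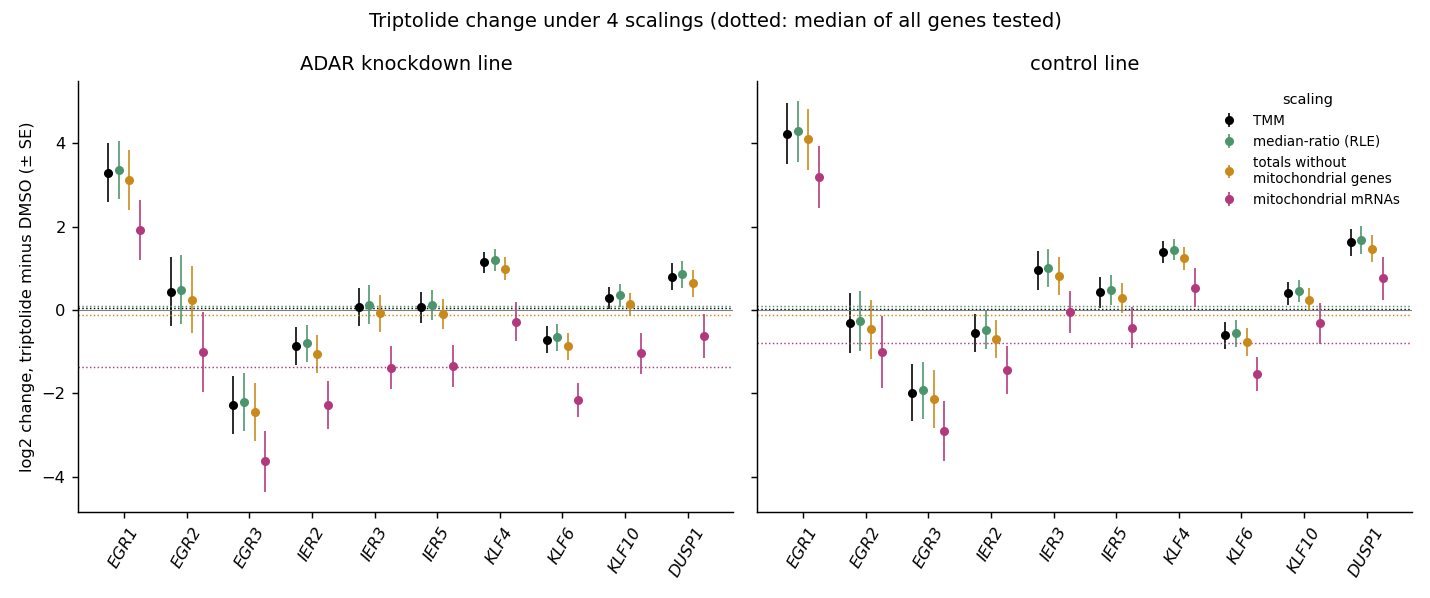
Log2 change under triptolide relative to DMSO, with its SE, for each gene under 4 scalings of the libraries, in the knockdown line (left) and the control line (right); dotted lines mark the median change of all genes tested under each scaling. Scaling to mitochondrial mRNAs moves the median of all genes down, to -1.36 and -0.79, and EGR1 stays above 0 under each scaling in both lines.

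The genes around the members in the same pathway were described from lists, whose counts stand beside 16.7% of all genes higher and 18.9% lower in knockdown cells and 14.9% and 16.0% in control cells (with the replicate block, 29.1% and 28.1% in knockdown cells and 26.1% and 26.0% in control cells). Of 8 AP-1 genes, which encode the partners of the FOS and JUN dimer, 3 were higher and 1 was lower in both lines, and the list's median change was 0.76 in knockdown cells and 0.54 in control cells. FOSB averaged 6.87 ± 0.511 CPM in knockdown cells under triptolide and 0.5 ± 0.233 CPM under DMSO (SD, n = 3), a 13.5-fold rise (adjusted p = 0.000126), and in control cells it rose 11.3-fold (adjusted p = 0.000233). Its DMSO libraries held 10 to 31 counts in knockdown cells and 19 to 30 in control cells. ATF3, a stress-induced member, rose 4.34-fold and 5.83-fold, and FOS, a partner of JUN, 3.68-fold and 5.04-fold. JUND, which is not an early-induced gene in most cells, fell to 0.342 and 0.351 of the DMSO level. With the block, 4 AP-1 genes were higher and 1 lower in knockdown cells, and 3 were higher and 2 lower in control cells.

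Of 18 other immediate early or short-lived mRNAs tested, 3 were higher and 5 lower in knockdown cells and 5 higher and 6 lower in control cells, with medians of -0.44 and -0.18. The orphan nuclear receptor gene NR4A3 rose 9.56-fold in knockdown cells (2.77 ± 0.844 CPM under triptolide and 0.287 ± 0.158 CPM under DMSO) and 17.9-fold in control cells (2.77 ± 0.662 CPM under triptolide and 0.15 ± 0.122 CPM under DMSO). The NR4A3 level under DMSO rests on 7 to 17 counts per library in knockdown cells and 1 to 9 in control cells. GADD45B, a stress sensor, rose 2.58-fold and 2.9-fold. MYC, the growth-promoting transcription factor, fell to 0.175 and 0.183 of the DMSO level (6.77 ± 2.5 CPM under triptolide and 38.9 ± 10.3 CPM under DMSO in knockdown cells). The survival factor gene MCL1 fell in both lines, to 0.406 of the DMSO level in knockdown cells. With the block, 4 were higher and 7 lower in knockdown cells and 5 higher and 7 lower in control cells. Genes of this list therefore went both ways, as the members did.

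Of 15 genes for the kinases and factors that induce immediate early genes, 2 were higher and 5 lower in both lines, with medians of 0.15 and 0.12. CREB1 fell to 0.285 and 0.343 of the DMSO level, and ELK4, a partner of SRF, fell to 0.421 and 0.515 of it. MAP2K1, which encodes a kinase that activates ERK, rose 1.61-fold in knockdown cells (adjusted p = 0.00337). The other higher gene, RPS6KA3, averaged 1.63 CPM under triptolide and 0.0264 CPM under DMSO in knockdown cells, with 0 to 2 counts per library under DMSO, too few for a ratio. With the block, 5 genes of the list were higher and 6 lower in knockdown cells, and 3 were higher and 6 lower in control cells.

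Of 15 feedback inhibitors of the same pathway, to which DUSP1 belongs by function, 1 was higher and 6 lower in knockdown cells and 0 were higher and 5 lower in control cells, with medians of -1.0 and -0.79. With the block, 1 was higher and 8 were lower in knockdown cells and 0 were higher and 10 lower in control cells. The 5 lower in both lines without the block were SPRED1, SPRED2, SPRY1, SPRY2 and the phosphatase gene DUSP16. SPRED1 averaged 1.58 ± 0.137 CPM in knockdown cells under triptolide and 7.5 ± 0.534 CPM under DMSO, a fall to 0.21 of that level (adjusted p = 1.73e-06), and DUSP16 fell to 0.355 of it. The 1 higher gene was DUSP10, a p38 and JNK phosphatase (log2 change 1.75 ± 0.61, adjusted p = 0.0329), named after its value was seen. Of 11 other KLF genes, 0 were higher in either line without the block, 4 were lower in knockdown cells and 2 in control cells, with medians of -0.82 and -0.47. With the block, 0 were higher and 4 lower in knockdown cells, and 2 were higher and 5 lower in control cells. The 2 higher, KLF15 (0.69 ± 0.23, adjusted p = 0.0175) and KLF16 (0.64 ± 0.24, adjusted p = 0.0326), were named after their values were seen. KLF13 fell to 0.306 and 0.339 of the DMSO level and KLF11 to 0.475 and 0.486, whereas KLF4 of the members rose in both lines on the scale of all mRNAs, though not on that of mitochondrial mRNAs. The medians of the 10 members were 0.18 in knockdown cells and 0.41 in control cells. Scaled to mitochondrial mRNAs, FOSB and NR4A3 were still called higher in both lines, and MYC, CREB1, SPRED1 and KLF13 lower. On that scale ATF3 was called in control cells alone, FOS and GADD45B in neither line (GADD45B stood at -0.02 and 0.70), and MAP2K1 stood at -0.70 in knockdown cells.

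**Figure D4:**
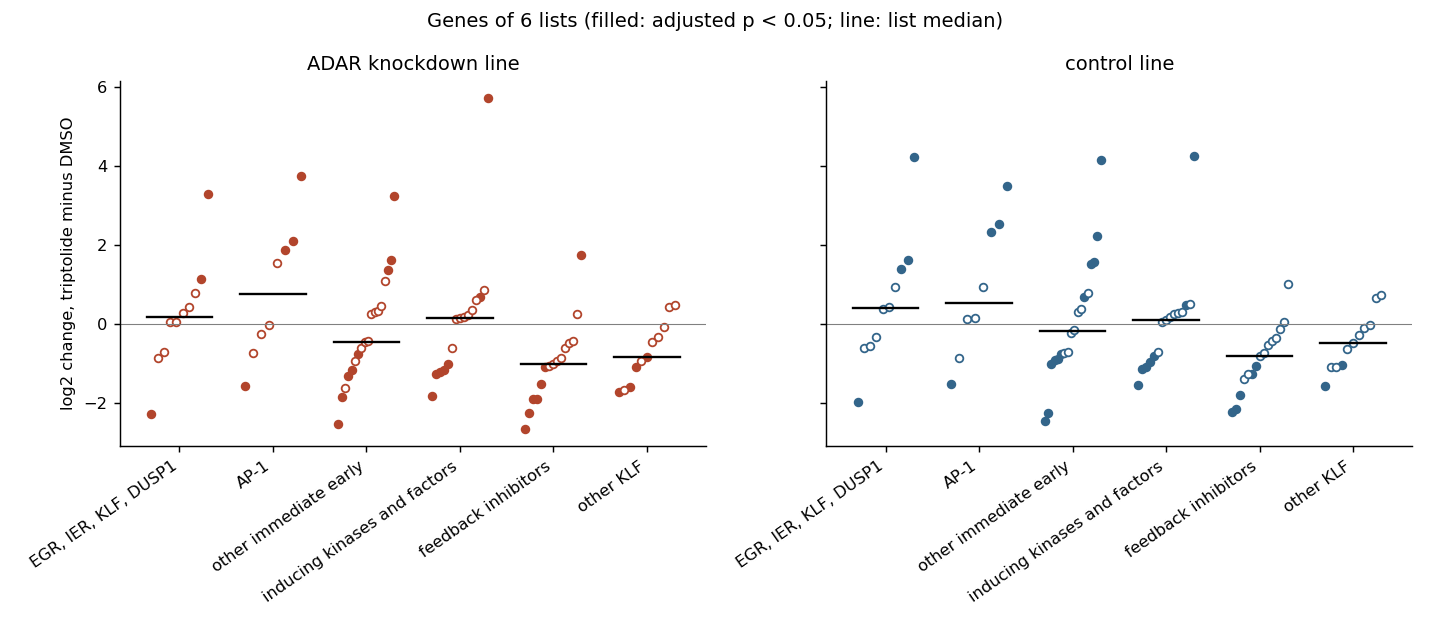
Log2 change under triptolide relative to DMSO, with TMM scaling, for the genes of 6 lists in the knockdown line (left) and the control line (right); each point is a gene, filled where the adjusted p is under 0.05, and the line is the median of the list. The feedback inhibitors have medians of -1.0 and -0.79, whereas the EGR, IER, KLF and DUSP1 genes have medians of 0.18 and 0.41.

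Whether the response to triptolide differed between the lines was tested as an interaction. No member was called, and neither was any of the 21285 genes (0.0% in edgeR without the block, where 203 genes had an unadjusted p under 0.05, and 1 gene, 0.0047%, both with the block and in DESeq2). For IER3 the response in knockdown cells minus that in control cells was -0.88 ± 0.66, for EGR1 -0.94 ± 0.98 and for DUSP1 -0.82 ± 0.46 on the log2 scale. DUSP1 had the smallest unadjusted p of the members (0.092, and 0.0315 with the block). The lines were therefore not shown to differ in the response of any member, DUSP1 and IER3 included.

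Knockdown set against control asked what differed between the lines at each treatment. None of the 10 members was called in untreated, DMSO or triptolide cells, beside 0.0987, 0.094 and 0.0658% of all genes in edgeR without the block and 0.578, 0.606 and 0.644% with it. An unadjusted p under 0.05 was reached by 568, 507 and 643 genes, and DESeq2 called 54, 43 and 40 genes (0.254, 0.202 and 0.188%), with 0 members among them. IER3 had the smallest unadjusted p of the members in untreated and DMSO cells (0.0701 and 0.0349). It stood at 13, 6.16 and 17.4 CPM in untreated knockdown cells, against 11, 3.36 and 5.20 CPM in untreated control cells, and at 16.9, 7.18 and 20 CPM in knockdown cells under DMSO, against 10.3, 5.62 and 5 CPM in control cells. It was higher in the knockdown library in 8 of 9 pairs, with ratios of 0.894 to 3.99, as were 5.37% of all genes, and in untreated and DMSO cells the largest ratios came from replicate 3. The changes were 0.90 ± 0.47, 1.07 ± 0.47 and 0.19 ± 0.46 in untreated, DMSO and triptolide cells (adjusted p = 1 in each, and 0.236, 0.162 and 0.867 with the block).

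**Figure D5:**
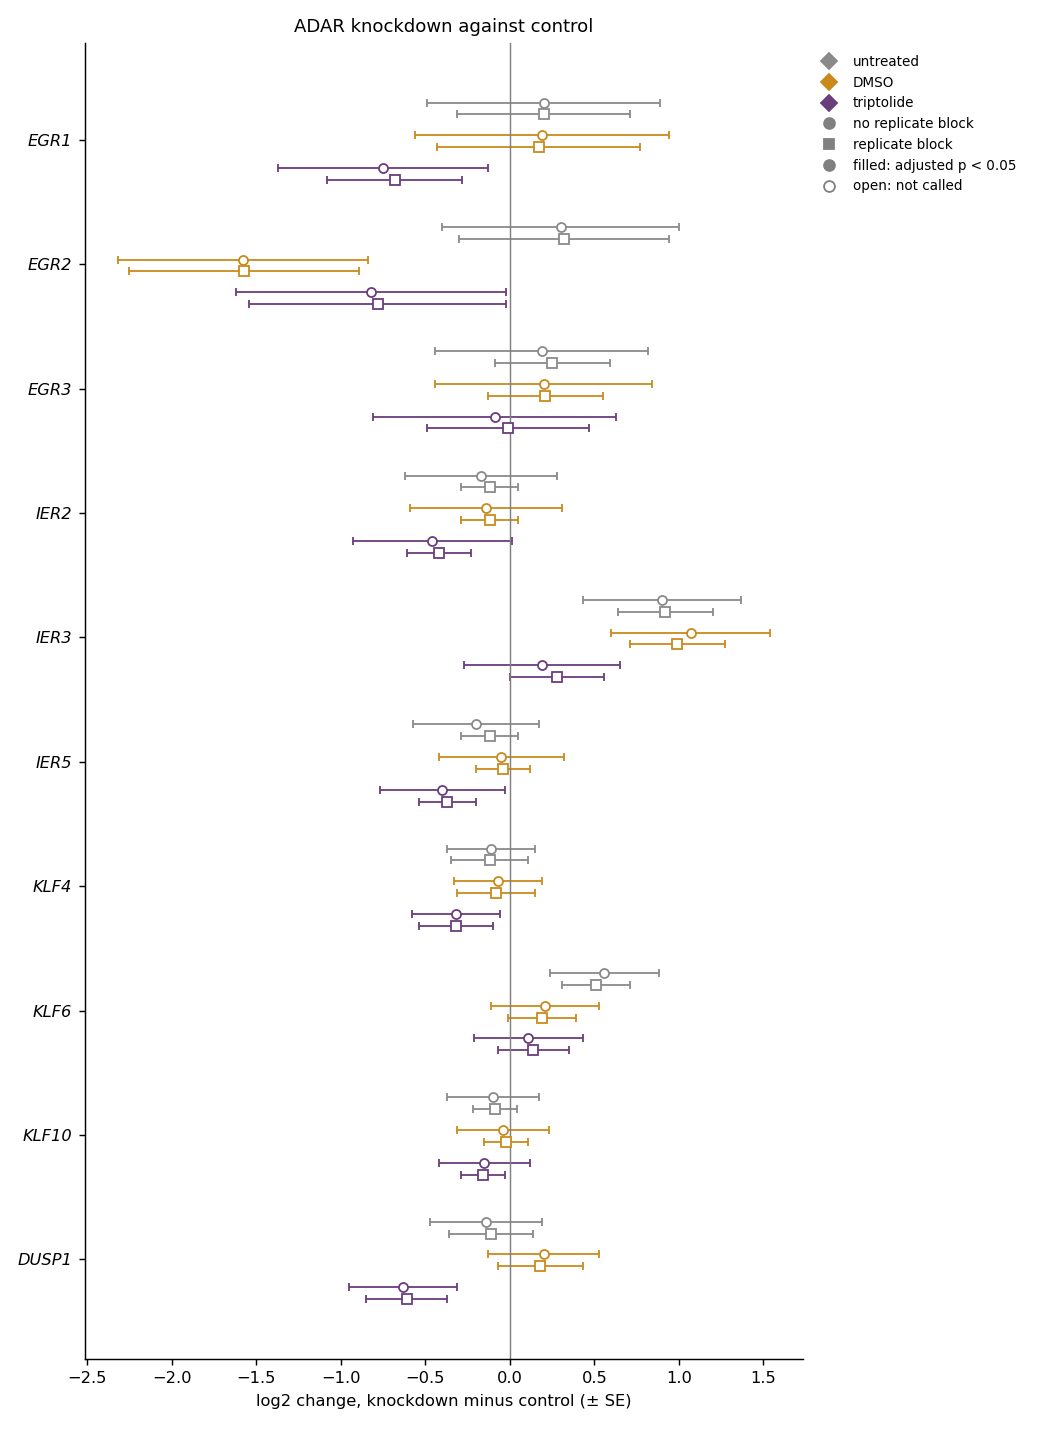
Log2 difference of the knockdown line minus the control line for each gene, with its SE, in untreated, DMSO and triptolide cells; circles are fits without the replicate block and squares fits with it. All points are open (adjusted p of 0.05 or more), and IER3 in DMSO cells has the highest value, 1.07 without the block.

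DUSP1 under triptolide was lower in knockdown than in control cells in 3 of 3 pairs and without overlap (values above), by a log2 change of -0.63 ± 0.32 (adjusted p = 1, and 0.446 with the block). Of all genes, 3.66% were lower without overlap in that comparison. EGR2 under DMSO was lower without overlap as well, at 6, 5 and 2 counts in knockdown cells against 10, 17 and 9 counts in control cells (-1.58 ± 0.74, adjusted p = 1), and 3.27% of all genes were. EGR1, EGR3, IER2, IER5, KLF4, KLF6 and KLF10 differed by at most 0.75 on the log2 scale in each of the 3 treatments. Across the 9 pairs, IER2, IER5, KLF4 and KLF10 were lower in the knockdown library in 7 each, EGR3 and KLF6 higher in 6 each, and EGR1 and DUSP1 lower in 5 each.

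DMSO set against no treatment showed whether the vehicle moved these genes. None of the members was called in either line, and none of all genes was (0.0% in edgeR, where 208 genes in knockdown and 121 in control cells had an unadjusted p under 0.05, and 0 with the block and in DESeq2). Without the filter on low counts, 25 of 48591 genes were called in knockdown cells, all lower, and 0 in control cells. EGR2 alone did not overlap, at 6, 5 and 2 counts under DMSO against 7, 12 and 12 counts untreated in knockdown cells, and 1.73% of all genes were lower without overlap there. In the order untreated, DMSO and triptolide, EGR1 averaged 0.468 ± 0.428, 0.236 ± 0.192 and 2.39 ± 0.168 CPM in knockdown cells and 0.406 ± 0.376, 0.206 ± 0.113 and 4.02 ± 1.67 CPM in control cells. KLF4 averaged 5.3 ± 1.21, 5.21 ± 1.06 and 11.5 ± 2.60 CPM in knockdown cells and 5.73 ± 1.65, 5.48 ± 0.82 and 14.3 ± 0.686 CPM in control cells. DUSP1 averaged 2.54 ± 0.535, 2.54 ± 0.69 and 4.41 ± 0.331 CPM in knockdown cells and 2.80 ± 1.31, 2.21 ± 0.619 and 6.81 ± 0.461 CPM in control cells. The step between these 3 groups therefore lay between DMSO and triptolide for KLF4 and DUSP1, and for EGR1 untreated replicate 1 stood above the other untreated libraries in both lines, at 0.96 and 0.836 CPM.

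Replicates 1, 2 and 3 differed in the same way across groups for several members. Replicate 1 was the highest of the 3 in 6 of 6 groups for IER2 and IER5 and in 5 for EGR3 and DUSP1, and replicate 2 was the lowest in 5 for EGR3, IER3, KLF6 and DUSP1. Across the 18 libraries, which share these groups and replicate numbers, log2 levels of KLF4 and DUSP1 had a Pearson r of 0.937, EGR1 and DUSP1 of 0.931, EGR1 and KLF4 of 0.93 and EGR3 and IER2 of 0.825, and the lowest was that of KLF6 and KLF10, at -0.684. As a description over the same libraries, the gene whose level was most like EGR1 was MIR9-1HG (r = 0.965), for EGR3 AAR2 (0.961), for IER2 ADAM8 (0.965), for IER3 CACNG4 (0.88), for IER5 MGAT1 (0.947), for KLF4 HBEGF (0.944), for KLF6 CASP2 (0.924), for KLF10 GPR155 (0.953) and for DUSP1 FAM43A (0.948). For the mean of the 9 members that averaged at least 1 CPM the nearest genes were KLHL21 (0.899), ITGA10 (0.882), PPP1R3F (0.865), FAAP20 (0.863) and NECTIN1 (0.858).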

How the data were processed

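RNA from 18 libraries was made with a stranded total RNA kit, per the labels. Each deposited file holds whole-number counts of 1 library, not normalized, as the authors counted them. Per the submitters' processing notes, the tools were STAR 2.4.2a, HTSeq 0.6.1, DESeq2 1.4.5 and R 3.1 with the build hg19. How the counting treated strand is not given in the sources used here. Of the genes lying wholly within exons of an expressed gene on the other strand, 362 of 416 (87.0%) had 0 counts. On the same strand 257 of 393 (65.4%) did. Counting without strand would leave shared bases unassigned, but genes that are not expressed have 0 counts under either setting. These shares cannot tell how strand was treated, and genes that share exon bases with a member are therefore named beside it. The 5 tally rows held 24.9 to 35.4% of all reads counted and were left out. Symbols and positions came from GENCODE release 44 mapped to GRCh37 (97.6% of gene IDs had a symbol), and promoter windows from RefSeq.

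After filterByExpr and TMM scaling, all 18 libraries entered 1 quasi-likelihood fit (edgeR 4.0.16, limma 3.58.1, R 4.3.3) with 12 residual degrees of freedom. P-values were adjusted by Benjamini-Hochberg over 21285 genes in each of 8 comparisons, two-sided, at a threshold of 0.05. A change is given as log2 with its standard error (SE), and a level as TMM-scaled CPM with the SD of 3 libraries. Replicates differed by far more than sampling noise (chi-square of at least 62 per degree of freedom), so none was counted as a copy of another. The scripts were tested on simulated counts. Counts per library limit the precision of a level, and are given for the members and the list genes whose ratios rest on few.

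Whether equal replicate numbers pair the libraries was checked on residuals from the group means. In 45 pairs of equal number the correlation was 0.307 to 0.688, in 90 pairs of unequal number it was -0.519 to 3.38e-05, and 18 of 18 libraries correlated best with their own number. The numbers thus pair the libraries, and a blocked fit on that number, with 10 residual degrees of freedom, is given beside the members' calls and list counts it changes. That the replicates came from separate cultures is not said beyond the words biological replicate, so p-values measure the spread between these samples.

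The members and lists were chosen with earlier results of these data known. All members are named, and of each list at most 5 called genes per comparison, by smallest p, with exceptions said in the text. The gene most like each member is the one with the highest Pearson r of log2(CPM + 1) among genes averaging at least 1 CPM. Alternatives were the block, DESeq2 1.42.0, 3 other scalings, no filter, only the libraries compared, and leaving out 1 library at a time. Leaving out all 6 libraries of a replicate number under the block was added after seeing the data. Some genes of the lists are not reported here by name.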

Additional observations from a re-analysis of the deposited data

Results flagged for a closer look

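In 2 members every pair moved one way in one setting and the opposite way in another, and the difference between the settings was not tested. EGR1 was higher in knockdown than in control cells in 3 of 3 untreated pairs (log2 difference 0.20 ± 0.69 SE) and lower in 3 of 3 triptolide pairs (-0.75 ± 0.62). The untreated levels of EGR1 rest on 5 to 34 counts in knockdown libraries and 4 to 32 counts in control libraries, and the 3 untreated pairs differ by far less than the replicates do. EGR2 was lower under DMSO than untreated in 3 of 3 pairs of knockdown cells (-1.48 ± 0.74) and higher in 3 of 3 pairs of control cells (0.40 ± 0.69). These EGR2 levels rest on 2 to 6 counts under DMSO and 7 to 12 counts untreated in knockdown cells, and on 9 to 17 counts under DMSO and 8 to 10 counts untreated in control cells. Neither gene was called in these comparisons (edgeR adjusted p = 1 in each).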

How the results depend on the processing

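Against 3 members called in knockdown cells and 4 in control cells (triptolide against DMSO; 35.7% and 30.8% of all genes), the replicate block gave 6 and 9 (57.1% and 52.1%). The block without replicate 1, 2 or 3 of every group gave 5, 5 and 6 in knockdown cells and 7, 7 and 5 in control cells. Of all genes, those 3 runs called 9456 of 20712, 10791 of 21547 and 10110 of 21955 in knockdown cells. In control cells they called 8371, 9919 and 8968 of the same totals. Scaling to mitochondrial mRNAs gave 6 in knockdown cells and 3 in control cells, beside 57.5% and 33.1% of all genes. No filter on low counts gave 5 in each line, beside 9163 and 8158 of 48591 genes. DESeq2, RLE size factors and library totals without mitochondrial genes gave 4 each in knockdown cells and 4 each in control cells. Of 21285 genes, they called 8360, 7675 and 7593 in knockdown cells and 7279, 6624 and 6638 in control cells. Leaving out 1 library at a time gave 2 to 3 and 3 to 4. Of all genes, these runs called from 6075 of 22225 to 7265 of 22323 in knockdown cells. In control cells they called from 5137 of 22192 to 6132 of 22237. The DUSP1 call in knockdown cells was gained in DESeq2 (adjusted p = 0.0231) and with RLE size factors (0.0451), and that of KLF6 with totals without mitochondrial genes (0.0476). Without the filter, the calls of IER2 (0.042) and KLF6 (0.044) were gained in knockdown cells and that of IER3 (0.044) in control cells. The scale of mitochondrial mRNAs added KLF6 in both lines and IER2, IER3 and IER5 in knockdown cells. On that scale 6 changes in knockdown cells turned from positive to negative, those of IER3 (-1.38), IER5 (-1.34), KLF10 (-1.04), EGR2 (-1.0), DUSP1 (-0.62) and KLF4 (-0.28), where the median of all genes stood at -1.36, and 3 in control cells, those of IER5 (-0.42), KLF10 (-0.32) and IER3 (-0.05). The median of all genes also moved on that scale for DMSO against untreated, to 0.54 in knockdown cells and -0.22 in control cells. The other 6 comparisons called 0 members under each alternative run. Paired by replicate number, no member's call was lost. Library depth limits EGR2, at 0 to 17 counts per library, the DMSO level of EGR1, at 4 to 19 counts, and the triptolide level of EGR3, at 15 to 24 counts.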
